A study of Drosophila melanogaster with 12 samples.

Results

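Glycogen, trehalose and gluconeogenesis genes were followed across 12 arrays of Kc167, a hemocyte-like Drosophila line that was derived from embryos. The set was defined by name as 10 genes (Gyg, AGBE, UGP, GlyS, GlyP, Mal-A5, Treh, Tps1, fbp and Pepck1). The genes were chosen with earlier results of these data known, so counts and ranks of them beside all probe sets are descriptive only. A gene entered when a probe set carried its symbol alone, and the probe set with the highest mean over the arrays stood for it. This gave 8 genes of 11982 on the platform with 1 symbol, while GlyS and GlyP were not analysed here. Cells were plated at 1000000 per well and cultured for 6 days, with 3 arrays in each of 4 groups. The groups were control cells (labelled as cells alone), cells given double-stranded RNA (dsRNA) against PTIP, cells given dsRNA against Pc and ph (Pc/ph), and cells given dsRNA against all of these (Pc/ph+PTIP). Per the labels the dsRNA dose was 15 µg per well and serum was added to 5% after 1 hour. No group with an unrelated dsRNA is labelled, and the labels name no dsRNA for control cells. Against control, and in comparisons of effects that use control, an effect of dsRNA as such and one of the knockdown cannot be told apart.

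Glycogen is a branched store of glucose. UGP (UDP-glucose pyrophosphorylase) makes the activated sugar, glycogenin (Gyg) primes the chain, glycogen synthase (GlyS) extends it and the branching enzyme AGBE adds branch points, while glycogen phosphorylase (GlyP) releases glucose units. Trehalose, the main blood sugar of insects, is made by trehalose-6-phosphate synthase (Tps1), chiefly in the fat body, and split into glucose by trehalase (Treh). Maltases such as Mal-A5 release glucose from short sugars. Phosphoenolpyruvate carboxykinase (Pepck1) and fructose-1,6-bisphosphatase (fbp) catalyse bypass steps of gluconeogenesis, the route from small carbon compounds back to glucose.

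Values are log2 RMA signals, and they compare arrays for 1 gene, not 1 gene with another. Replicate 1 arrays of all 4 groups stood apart, with medians of 5.62 to 5.77 against 5.83 to 5.88 in the other 8 arrays. Their upper quartiles were 8.65 to 8.95 against 9.62 to 9.74. Within replicate 1 the upper quartile was 8.65 in PTIP and 8.88 in control cells. A block cannot remove that gap, and its part in the PTIP falls was not tested. Because replicate 1 stood apart, each comparison was fitted in limma with the replicate number as a block. A change was called at an adjusted p under 0.05 over all 18769 probe sets, and an adjusted p without further words is from that fit. No label states that replicates were separate cultures, so p-values speak only to the spread among the arrays at hand. The line is female, and signals of 6 probe sets for genes on the Y chromosome ran from 4.07 to 5.57, and 5.57 was taken as the background level. Pc stood at 17.8 to 21.8% of its same-numbered control in Pc/ph arrays and at 45.5 to 70.9% in Pc/ph+PTIP arrays. The level of ph, the other target in these groups, was not checked here. Ptip stood at 60.6 to 87.8% in PTIP arrays and at 49.8, 72.6 and 111% in Pc/ph+PTIP replicates 1, 2 and 3. In Pc/ph arrays, which had no PTIP dsRNA, Ptip stood at 87.7, 70.2 and 102%, overlapping the PTIP arrays, and Pc stood at 63.3, 124 and 111% in PTIP arrays. The library labelled Pc/ph+PTIP replicate 3 thus had Ptip above its control. Calls on the 8 genes that were lost without it are named, and it is 1 of 2 arrays of its group wherever replicates 2 and 3 are used alone. Of 20 hemocyte markers, 17 lay above background on every array, while the crystal cell gene lz lay below it on all 12. Of 12 fat body markers, 3 (FASN1, Cyp6a8 and Yp2) were above background on every array, apolpp was below it on all 12, and Lsp2 and Fbp1 stayed between 4.94 and 5.84. Limma called 0 of the fat body markers in any comparison with control (2, 1 and 2 at an unadjusted p under 0.05 in PTIP, Pc/ph and Pc/ph+PTIP cells).

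**Figure D1:**
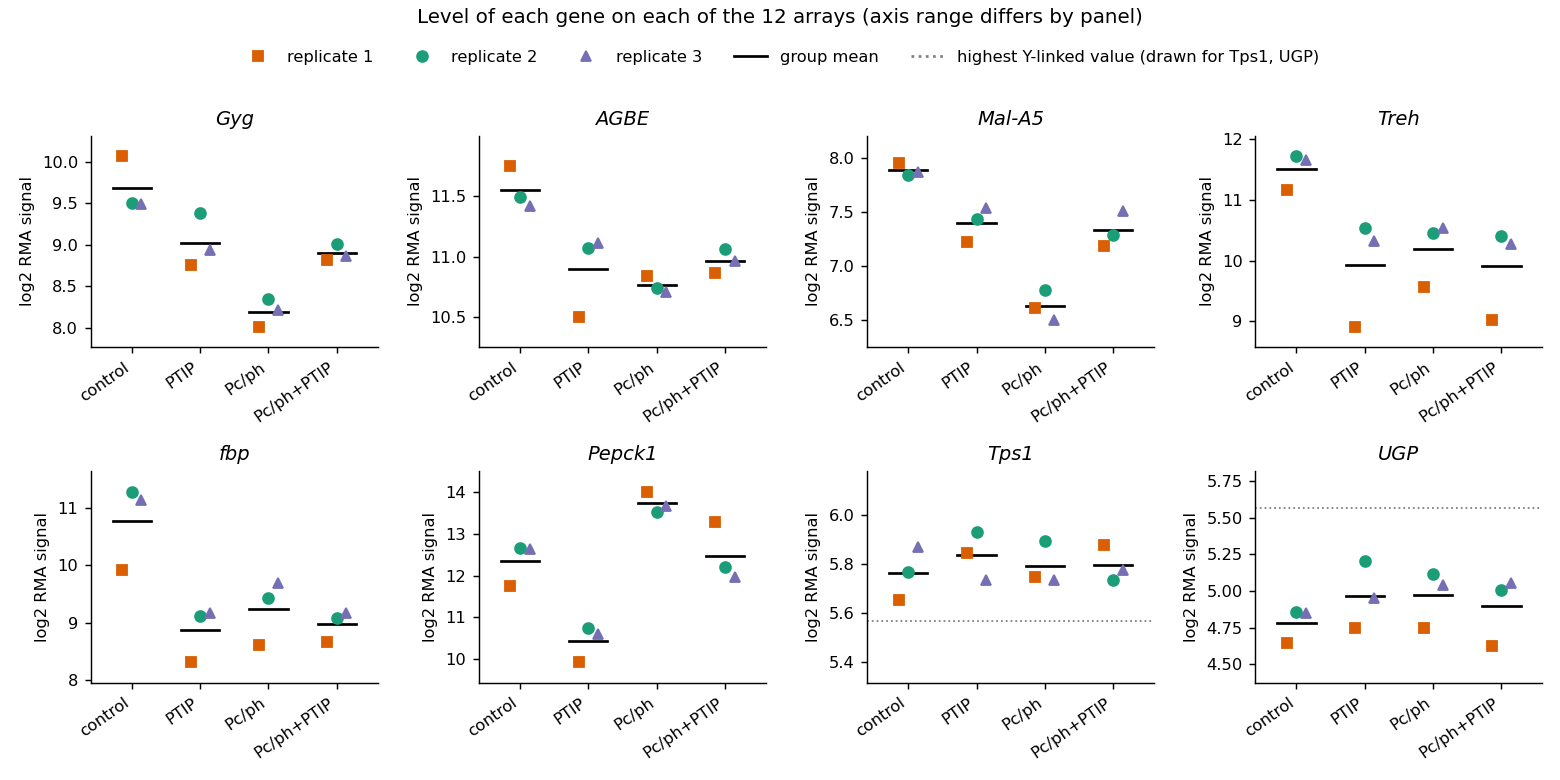
Log2 RMA signal (vertical axis, range set for each panel) of the 8 genes on each of the 12 arrays by group, with symbols for replicates 1 to 3 and a bar for the group mean. Gyg, AGBE, Mal-A5, Treh and fbp lay lower in all 3 knockdown groups than in control, Pepck1 lay lower in PTIP and higher in Pc/ph cells, and UGP lay below the dotted line at 5.57, the highest Y-linked value.

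Gyg and AGBE, the measured genes that build the glycogen particle, were lower in every knockdown group than in control. Gyg had signals of 10.06, 9.51 and 9.49 in control replicates 1, 2 and 3. In Pc/ph cells it had 8.01, 8.35 and 8.21. Between them lay PTIP cells with 8.75, 9.38 and 8.93 and Pc/ph+PTIP cells with 8.81, 9.01 and 8.86. Control arrays were the highest and Pc/ph arrays the lowest, with no overlap to any other group, while PTIP and Pc/ph+PTIP arrays overlapped each other. Gyg fell to 35.5% of control in Pc/ph cells (log2 difference -1.49 ± 0.18 SE, n = 3, adjusted p = 0.00236), a call also made by limma without the block (adjusted p = 0.0136) and kept without any single array. Its fall to 57.8% of control in Pc/ph+PTIP cells (-0.79 ± 0.18, adjusted p = 0.03) was not called by limma without the block (adjusted p = 0.243). It was lost, too, without control replicate 3 (-0.87, adjusted p = 0.0692) and without Pc/ph+PTIP replicate 1, 2 or 3 (-0.76, -0.79 and -0.82, with adjusted p of 0.119, 0.11 and 0.104). In PTIP cells the difference of -0.66 (adjusted p = 0.0541) missed the threshold, and it passed without control replicate 2 (-0.86, adjusted p = 0.0318), PTIP replicate 2 (-0.83, adjusted p = 0.0411) or Pc/ph replicate 1 (-0.66, adjusted p = 0.0409).

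A dimmer Gyg probe set agreed on the direction against control but not on the order of the knockdown groups. It read 6.49, 6.80 and 6.85 in control, 6.28, 6.01 and 5.71 in PTIP, 5.91, 6.03 and 6.06 in Pc/ph and 6.43, 6.04 and 5.83 in Pc/ph+PTIP replicates 1, 2 and 3. Control arrays were thus again the highest, and the knockdown groups overlapped. On this probe set the difference from control was -0.72 in PTIP cells (limma adjusted p = 0.0354) and -0.71 in Pc/ph cells (adjusted p = 0.0866). In Pc/ph+PTIP cells it was -0.62 (adjusted p = 0.069), so neither Gyg call against control was made on it.

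AGBE, which branches the glycogen chain, read 11.75, 11.50 and 11.42 in control, 10.50, 11.07 and 11.11 in PTIP, 10.84, 10.74 and 10.71 in Pc/ph and 10.87, 11.07 and 10.96 in Pc/ph+PTIP replicates 1, 2 and 3. Every knockdown array lay below every control array, and PTIP arrays overlapped both other knockdown groups. AGBE fell to 58.0% of control in Pc/ph cells (-0.79 ± 0.15 SE, n = 3, adjusted p = 0.032) and to 63.4% in PTIP cells (-0.66 ± 0.15, adjusted p = 0.0315). In Pc/ph+PTIP cells the difference of -0.59 ± 0.15 missed the threshold (adjusted p = 0.0533), and it passed after 4 other settings and in replicates 2 and 3 alone, and without PTIP replicate 1 (adjusted p = 0.00536), PTIP replicate 3 (0.0482) or Pc/ph replicate 1 (0.0388). Without the block limma called AGBE in none of these (adjusted p = 0.195, 0.261 and 0.372). Both AGBE calls depended on single arrays. In Pc/ph cells the call was lost without control replicates 1, 2 or 3 (-0.62, -0.86 and -0.88, with adjusted p of 0.113, 0.0936 and 0.0653), Pc/ph replicates 2 or 3 (-0.74 and -0.75, 0.157 and 0.152) and either of Pc/ph+PTIP replicates 2 and 3 (-0.79 in both, 0.0632 and 0.0694). In PTIP cells it was lost without control replicates 1, 2 or 3 (-0.49, -0.73 and -0.75, with adjusted p of 0.129, 0.0641 and 0.0591), Pc/ph replicate 3 (-0.66, 0.0514) and either of Pc/ph+PTIP replicates 2 and 3 (-0.66 in both, 0.0535 and 0.0584).

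UGP signals ran from 4.62 to 5.20 over the 12 arrays, all below the highest Y-linked value, so no level above background was measured for this gene. It was called in no comparison by limma, and 3 of its 6 planned comparisons had an unadjusted p under 0.05.

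Mal-A5, a member of the maltase cluster, followed the same order as Gyg. It read 7.96, 7.84 and 7.86 in control, 7.22, 7.43 and 7.54 in PTIP, 6.62, 6.78 and 6.50 in Pc/ph and 7.19, 7.29 and 7.51 in Pc/ph+PTIP replicates 1, 2 and 3. Control arrays were the highest, Pc/ph arrays the lowest, and PTIP and Pc/ph+PTIP arrays overlapped between them. Mal-A5 fell to 41.9% of control in Pc/ph cells (-1.26 ± 0.11 SE, n = 3, adjusted p = 2.62e-04; limma without the block, adjusted p = 0.00243), and the call was kept without any single array. It fell less far in PTIP cells (-0.49 ± 0.11, adjusted p = 0.026) and in Pc/ph+PTIP cells (-0.56 ± 0.11, adjusted p = 0.0168), and neither was called by limma without the block (adjusted p = 0.317 and 0.195). The direct comparison of Pc/ph with PTIP cells, added after the values were seen, gave -0.77 ± 0.11 (adjusted p = 0.00206, and 0.0312 without the block), and among the 8 genes that comparison gave 1 rise and 2 falls, against 5.41% of all probe sets higher and 4.26% lower (2 genes and 0.650% without the block). Gyg was the other fall there (-0.83 ± 0.18, adjusted p = 0.0163). It was not called without the block (adjusted p = 0.147) or on the dimmer probe set (0.0019, adjusted p = 0.998), and it was lost without PTIP replicates 2 or 3 (-0.67 and -0.84, 0.066 and 0.0627) or Pc/ph replicates 2 or 3 (-0.86 and -0.89, 0.0517 and 0.0504).

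Both smaller Mal-A5 falls depended on single arrays. The PTIP fall was lost without control replicates 1, 2 or 3 (-0.40, -0.54 and -0.53, with limma adjusted p of 0.118, 0.0583 and 0.0659), without PTIP replicates 1, 2 or 3 (-0.42, -0.50 and -0.55, with 0.0792, 0.0698 and 0.056), after quantile normalization (-0.42, 0.0604) and in replicates 2 and 3 alone (-0.37, 0.057). The Pc/ph+PTIP fall was lost without control replicate 1 (-0.47, adjusted p = 0.0771) and without Pc/ph+PTIP replicates 1 or 2 (-0.51 in both, 0.0812 and 0.0858). Its neighbours in the gene table, Mal-A3, Mal-A4, Mal-A6 and Mal-A7, had group means between 5.33 and 5.80, at or near background, and none was called in any comparison with control by limma (differences from -0.20 to 0.11 in PTIP and Pc/ph cells).

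Treh, which splits trehalose, fell in all 3 knockdown groups by similar amounts. It read 11.16, 11.72 and 11.66 in control, 8.91, 10.54 and 10.33 in PTIP, 9.56, 10.46 and 10.54 in Pc/ph and 9.03, 10.41 and 10.28 in Pc/ph+PTIP replicates 1, 2 and 3. No knockdown array reached the lowest control array, and the 3 knockdown groups overlapped one another. Treh fell to 33.3% of control in PTIP cells (-1.59 ± 0.17 SE, n = 3, adjusted p = 0.00118), to 39.9% in Pc/ph cells (-1.33 ± 0.17, adjusted p = 0.0042) and to 32.8% in Pc/ph+PTIP cells (-1.61 ± 0.17, adjusted p = 0.00109). Each of these calls was kept without any single array. Without the block, where the replicate 1 arrays widen the SE to 0.48, limma called none of them (adjusted p = 0.448, 1.00 and 0.427). The fall in PTIP cells was -2.25 in replicate 1 and -1.18 and -1.33 in replicates 2 and 3. Its probe set carries the platform's suffix for probes shared by several transcripts.

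Tps1, which makes trehalose, lay just above background on every array, from 5.65 to 5.93. The 4 groups overlapped, and no difference from control exceeded 0.07 ± 0.09 (SE, n = 3). Their 95% confidence intervals ran at most from -0.17 to 0.27. At this signal a fall could hardly be seen.

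fbp, the gluconeogenic bisphosphatase gene, showed falls as large as those of Treh. Its signals were 9.93, 11.29 and 11.13 in control and 8.32, 9.11 and 9.18 in PTIP replicates 1, 2 and 3. Pc/ph cells had 8.62, 9.43 and 9.70, and Pc/ph+PTIP cells had 8.67, 9.08 and 9.18. All knockdown arrays lay below all control arrays, and the knockdown groups overlapped. fbp fell to 26.6% of control in PTIP cells (-1.91 ± 0.15 SE, n = 3, adjusted p = 3.20e-04), the 41st largest change in size of the 18769 probe sets. It fell to 34.6% in Pc/ph cells (-1.53 ± 0.15, adjusted p = 5.63e-04) and to 28.7% in Pc/ph+PTIP cells (-1.80 ± 0.15, adjusted p = 2.81e-04). These 3 calls were kept without any single array, and none was made by limma without the block (SE 0.40, adjusted p = 0.12, 0.465 and 0.139). The fbp probe set also has the suffix for probes shared by several transcripts.

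**Figure D2:**
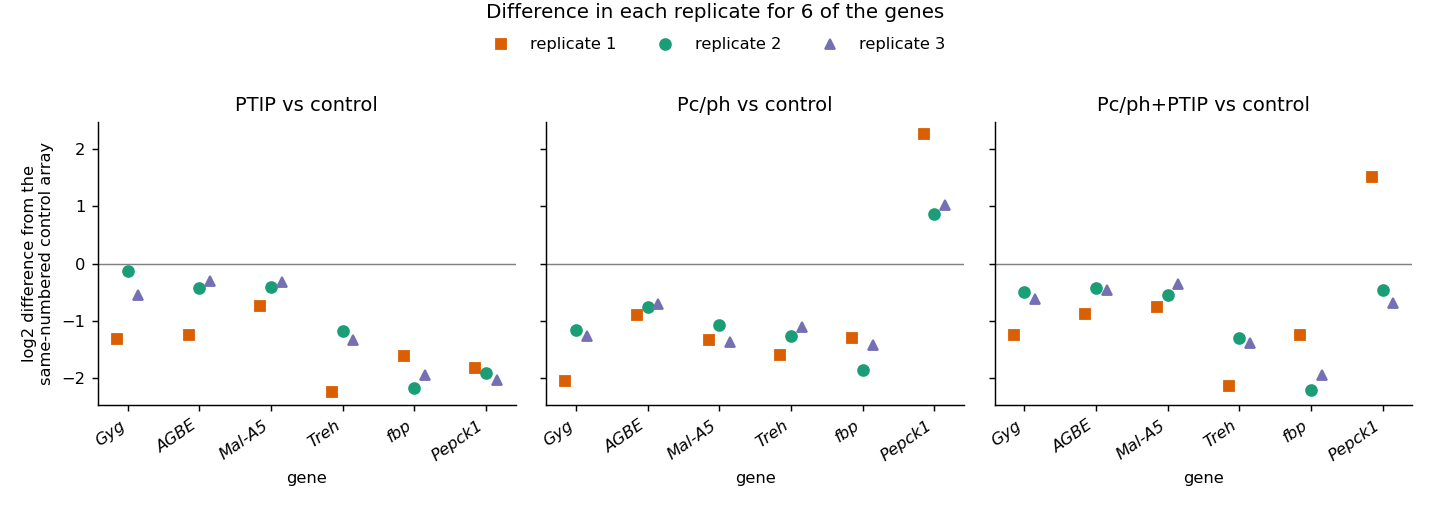
Log2 difference of each knockdown array from the control array of the same number (vertical axis) for 6 genes in the 3 knockdown groups, with symbols for replicates 1 to 3. Gyg, AGBE, Mal-A5, Treh and fbp lie below 0 in every replicate, and Pepck1 lies near -1.9 in PTIP cells, above 0 in Pc/ph cells and on both sides of 0 in Pc/ph+PTIP cells.

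Pepck1, which catalyses the first committed step of gluconeogenesis, differed from the other genes in going opposite ways after the separate knockdowns. It read 11.75, 12.66 and 12.64 in control, 9.93, 10.75 and 10.60 in PTIP, 14.01, 13.53 and 13.67 in Pc/ph and 13.27, 12.20 and 11.96 in Pc/ph+PTIP replicates 1, 2 and 3. PTIP arrays were the lowest and Pc/ph arrays the highest, neither overlapping any other group, while Pc/ph+PTIP arrays overlapped the control arrays. Pepck1 fell to 26.4% of control in PTIP cells (-1.92 ± 0.37 SE, n = 3, adjusted p = 0.015; limma without the block, adjusted p = 0.0842). That call was lost without control replicate 2 (-1.74, adjusted p = 0.0657) or 3 (-1.71, 0.0739). Its difference of 1.38 ± 0.37 in Pc/ph cells was not called (adjusted p = 0.128). It was called without Pc/ph+PTIP replicate 1 (1.38, adjusted p = 0.0225) and in replicates 2 and 3 alone (0.95 ± 0.10, adjusted p = 3.56e-04). In the comparison of Pc/ph with PTIP cells, added after the values were seen, Pepck1 was higher by 3.31 ± 0.37, or 9.90-fold (adjusted p = 6.30e-04, and 0.00274 without the block).

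The Pc/ph+PTIP value of Pepck1 depended on the replicate. Its difference from the same-numbered control was 1.52 in replicate 1, and -0.46 and -0.69 in replicates 2 and 3. The fitted difference was 0.13 ± 0.37 (SE, n = 3, adjusted p = 0.946), it turned to -0.27 without control replicate 1 and to -0.41 without Pc/ph+PTIP replicate 1 (adjusted p = 0.877 and 0.675), and replicates 2 and 3 alone gave a called fall of -0.57 ± 0.10 (adjusted p = 0.00462). Ptip in these 3 arrays stood at 49.8, 72.6 and 111% of control and Pc at 45.5, 65.9 and 70.9%, and their part in this spread was not tested.

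Set side by side, the 8 genes gave 0 rises and 5 falls in PTIP cells (Mal-A5, AGBE, Treh, fbp and Pepck1), where 3.80% of all probe sets were called lower and 2.72% higher by limma. Pc/ph cells gave 0 rises and 5 falls (Gyg, Mal-A5, AGBE, Treh and fbp), against 0.821% of all probe sets lower and 0.709% higher. In Pc/ph+PTIP cells 0 rose and 4 fell (Gyg, Mal-A5, Treh and fbp), against 2.86% lower and 2.71% higher. The shares of all probe sets include dim ones, in which a fall could hardly be seen. Fitted alone, probe sets above the median of mean values gave 785, 162 and 578 falls in PTIP, Pc/ph and Pc/ph+PTIP cells. All 18769 probe sets gave 713, 154 and 537, so the shares were larger among brighter probe sets. Unadjusted p-values under 0.05 were found for 7, 7 and 5 of the 8 genes, not all of them falls. UGP, below background, was higher in PTIP and Pc/ph cells (0.18 in both), and Pepck1 was higher in Pc/ph cells (1.38). Such p-values were common among all probe sets. The limma p of UGP (0.0416 in PTIP and 0.0392 in Pc/ph cells) ranked only 3137 and 1632 of 18769. The share of all probe sets under that threshold was not counted, with or without the block. The median difference over the 8 genes was -0.66 in PTIP, -1.02 in Pc/ph and -0.57 in Pc/ph+PTIP cells, and over all probe sets it was 0.03, 0.00 and 0.01. These 3 comparisons share their control arrays. As the 8 genes were chosen with earlier results of these data known, the counts are not independent of these arrays. Of the 20 hemocyte markers 6 fell in PTIP, 3 fell and 2 rose in Pc/ph and 4 fell in Pc/ph+PTIP cells. In PTIP cells NimC1, Glt and eater fell most (-2.24, -1.70 and -1.68). In Pc/ph cells He and NimB5 rose (1.36 and 1.28), while vkg, Col4a1 and SPARC fell (-0.97, -0.95 and -0.46). The summed level of the 20 markers, in which the brightest weigh most, was 16.3 to 16.9 as log2 in control arrays. It was 16.0 to 16.7 in PTIP, 16.6 to 17.0 in Pc/ph and 16.2 to 16.7 in Pc/ph+PTIP arrays. The part of these markers in the counts above was not tested. Among 9 muscle, 8 neuron and 7 germline markers, Argk1 rose in Pc/ph cells (2.02, adjusted p = 0.0117), and bt fell in PTIP (-0.92, 0.0207) and Pc/ph+PTIP cells (-0.77, 0.0474). In the same comparisons bam rose (0.83 and 0.96, adjusted p = 0.0144 and 0.00772) and aub fell in PTIP cells (-0.57, 0.031), and their part was not tested either. In bulk RNA, fewer cells of a kind and less RNA per cell cannot be told apart. Limma without the block called 0, 2 and 0 of the 8 genes, against 0.272, 0.197 and 0.272% of all probe sets, and 6, 6 and 5 of them had an unadjusted p under 0.05. In replicates 2 and 3 alone 4, 5 and 6 genes fell, against 6.03, 3.21 and 5.43% of all probe sets, and Pepck1 rose in Pc/ph cells (2.47% of all probe sets higher).

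**Figure D3:**
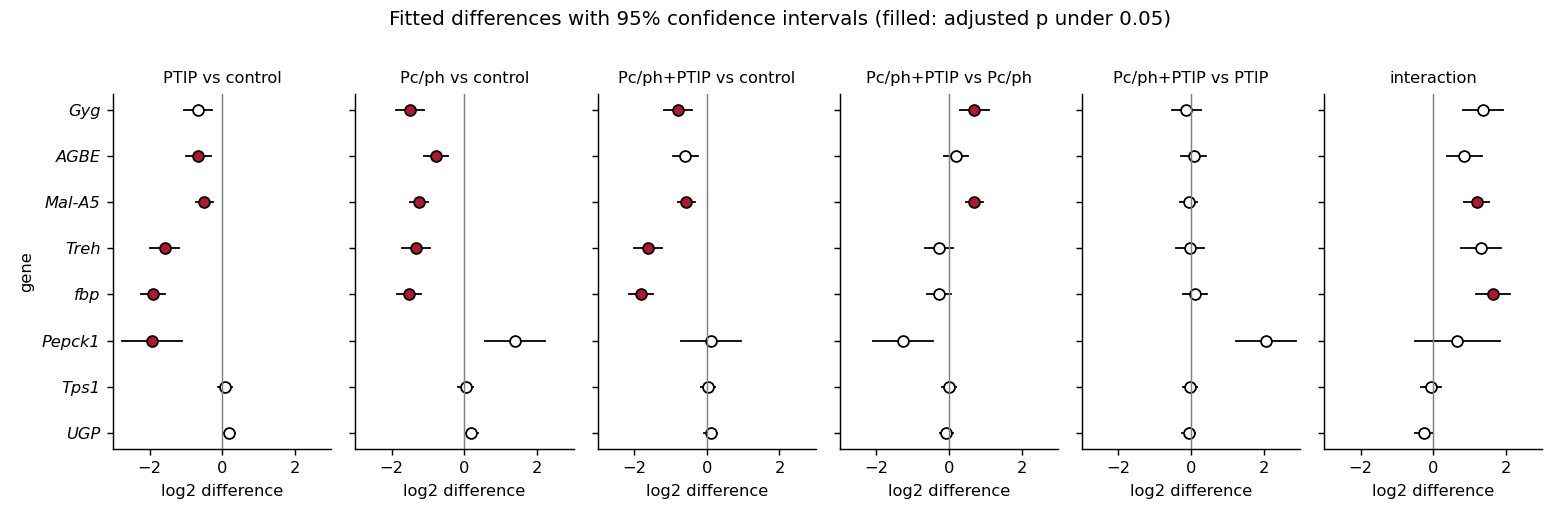
Fitted log2 differences (points) with 95% confidence intervals (lines) for the 8 genes in the 6 planned comparisons, filled where the adjusted p was under 0.05. The filled points against control all lie below 0, the panel against PTIP has none, and the filled interaction points of Mal-A5 and fbp lie above 0.

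Adding PTIP dsRNA to the Pc/ph knockdown asks which of these levels move when PTIP is targeted as well. Ptip stood at 49.8, 72.6 and 111% of control in Pc/ph+PTIP replicates 1, 2 and 3, against 87.7, 70.2 and 102% in Pc/ph replicates. It was thus lower with PTIP dsRNA added in replicate 1 only, and its part in the differences below was not tested. Gyg and Mal-A5 were higher in Pc/ph+PTIP than in Pc/ph cells, by 0.70 ± 0.18 (SE, n = 3, adjusted p = 0.0483) and 0.70 ± 0.11 (adjusted p = 0.00592), with no overlap between the groups. They were 2 rises and 0 falls among the 8 genes, with 2.90% of all probe sets called higher and 2.61% lower by limma, and 3 of the 8 had an unadjusted p under 0.05. Neither was called without the block (adjusted p = 0.454 and 0.0902, with 0.298% of all probe sets called). The Mal-A5 call was kept without any single array. The Gyg call was lost without control replicate 3, PTIP replicate 3, or any 1 of the Pc/ph or Pc/ph+PTIP arrays (0.61 to 0.77, limma adjusted p from 0.0714 to 0.193), the library labelled Pc/ph+PTIP replicate 3 among them (0.68, 0.193). On its dimmer probe set the difference was 0.10 (adjusted p = 0.887). Treh and fbp differed by -0.28 ± 0.17 and -0.27 ± 0.15 and AGBE by 0.20 ± 0.15, none called, with 95% confidence intervals of -0.67 to 0.11, -0.60 to 0.06 and -0.14 to 0.54.

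Pepck1 lay lower in Pc/ph+PTIP than in Pc/ph arrays in each replicate, with differences of -0.74, -1.32 and -1.72, yet its difference of -1.26 ± 0.37 (SE, n = 3) was not called (adjusted p = 0.0853). It was called without control replicate 1 (-1.26, adjusted p = 0.0455), without Pc/ph+PTIP replicate 1 (-1.79, 0.0111), after quantile normalization (-1.31, 0.0302), with a variance trend (-1.26, 0.0483) and in replicates 2 and 3 alone (-1.52, 1.26e-05), where 7.08% of all probe sets were lower. In replicates 2 and 3 Ptip was not lower in Pc/ph+PTIP than in Pc/ph arrays. Pc was less depleted in the Pc/ph+PTIP than in the Pc/ph arrays, at 45.5 to 70.9% against 17.8 to 21.8% of control. The part of either in these differences was not tested.

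Adding Pc/ph dsRNA to the PTIP knockdown gave 0 calls among the 8 genes, where limma called 6 of the 18769 probe sets (0.0320%). Only Pepck1 had an unadjusted p under 0.05 with the block, and again without it. Its difference of 2.05 ± 0.37 (SE, n = 3, adjusted p = 0.213) was the 8th largest in size of all probe sets, with 3.34, 1.45 and 1.36 in replicates 1, 2 and 3. In replicates 2 and 3 alone it was called (1.40 ± 0.10, adjusted p = 2.24e-04), against 0.256% of all probe sets higher. For the other 5 genes above background (Gyg, AGBE, Mal-A5, Treh and fbp) differences lay between -0.13 and 0.11, and their 95% confidence intervals ran at most from -0.52 to 0.44. At the depletion reached, levels in cells given both dsRNAs were thus within these limits of those in cells given PTIP dsRNA. Pc stood at 45.5 to 70.9% of control in Pc/ph+PTIP arrays, against 17.8 to 21.8% in Pc/ph arrays. Ptip stood at 111% in Pc/ph+PTIP replicate 3. A stronger Pc depletion beside PTIP dsRNA was not tested.

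The interaction compares the PTIP effect in Pc/ph cells with that in control cells. It was positive for fbp (1.64 ± 0.21 SE, n = 3, adjusted p = 0.0143) and Mal-A5 (1.19 ± 0.15, adjusted p = 0.0145), and 0.107% of all probe sets were called higher and 0.0799% lower by limma. fbp changed by -1.91 with PTIP dsRNA in control cells and by -0.27 in Pc/ph cells. Mal-A5 changed by -0.49 and 0.70. In Pc/ph cells Ptip was lower with PTIP dsRNA added in replicate 1 only, and its part in these values was not tested. Control is the only group with no dsRNA labelled, and Pc/ph cells already had dsRNA. In the interaction, too, an effect of dsRNA as such and one of the knockdowns thus cannot be told apart. Gyg, Treh and AGBE had interactions of 1.37, 1.31 and 0.86 that were not called (adjusted p = 0.0957, 0.11 and 0.372), and 6 of the 8 genes had an unadjusted p under 0.05, the 5 above and UGP, whose value was negative (-0.26) and whose signal lay below background. In replicates 2 and 3 alone all 5 of these genes were called higher, against 0.773% of all probe sets. Pepck1 gave 0.66 ± 0.52 (adjusted p = 1.00).

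Both interaction calls were fragile. Neither was made without the block (limma adjusted p = 1.00 for fbp and 0.187 for Mal-A5, with 0.00533% of all probe sets called) or after quantile normalization (0.0562 and 0.0543). The fbp call was lost without control replicate 3 (1.63, adjusted p = 0.0547), PTIP replicates 2 or 3 (1.63 in both, 0.0584 and 0.0613), Pc/ph replicate 2 (1.59, 0.0659) or the library labelled Pc/ph+PTIP replicate 3 (1.73, 0.0629). The Mal-A5 call was lost without control replicate 2 (1.24, 0.0555), PTIP replicate 2 (1.20, 0.0584), Pc/ph+PTIP replicate 2 (1.23, 0.0567) or the library labelled Pc/ph+PTIP replicate 3 (1.10, 0.0731). Gyg was called without control replicate 1 (1.09, adjusted p = 0.0225). Treh was called after quantile normalization (1.25, 0.0122) and after cyclic loess (1.29, 0.0456).

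Further carbohydrate genes were taken from lists that name 110 symbols, of which 81 were measured. The lists, too, were chosen with earlier results of these data known, so their counts are descriptive only. In PTIP cells 15 of the 81 fell and 0 rose by limma (27 and 1 at an unadjusted p under 0.05), or 18.5% lower beside 3.80% of all probe sets. In Pc/ph+PTIP cells 13 fell and 0 rose (22 and 2 unadjusted), or 16.0% lower beside 2.86% of all probe sets. In Pc/ph cells 5 fell and 0 rose (17 and 1 unadjusted), or 6.17% beside 0.821%. The shares of all probe sets are for adjusted calls and cannot be set beside the unadjusted counts. An unadjusted p under 0.05 was far more common among all probe sets. In PTIP cells a limma p of 0.0416 (UGP) ranked only 3137 of 18769, and in Pc/ph cells 0.0392 (UGP) ranked 1632. The shares of all probe sets include dim ones. Fitted alone, probe sets above the median of mean values gave 785 falls in PTIP, 578 in Pc/ph+PTIP and 162 in Pc/ph cells. All 18769 probe sets gave 713, 537 and 154, so the shares were larger among brighter probe sets. Without the block 0 of the 81 were called lower in any of these comparisons. The list of 14 glycogen genes held 7 of the falls in PTIP, 6 in Pc/ph+PTIP and 3 in Pc/ph cells, and that of 19 glycolysis and gluconeogenesis genes held 5, 4 and 1. The glycogen counts in PTIP and Pc/ph cells include Gbs-76A, singled out after its values were seen, with signals of 4.73 to 5.30 that never exceeded background. Of the 11 other maltase and amylase genes and the 11 pentose phosphate and UDP-sugar genes 0 were called against control by limma, with 1, 0 and 0 of the first list and 3, 1 and 2 of the second lower at an unadjusted p under 0.05 in PTIP, Pc/ph and Pc/ph+PTIP cells. Of the 11 maltase and amylase genes 0 lay above background on every array and 4 lay at or below it on all 12, so falls in them could hardly be seen. With each array left out in turn, the falls numbered 9 (without control replicate 1) to 18 in PTIP cells (1.91 and 5.11% of all probe sets lower), 1 (without Pc/ph replicate 2) to 11 in Pc/ph cells (0.362 and 1.27%) and 4 (without Pc/ph+PTIP replicate 3) to 20 in Pc/ph+PTIP cells (1.21 and 4.20%).

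The trehalose transporter gene Tret1-1 changed most in PTIP cells (-2.35 ± 0.46 SE, n = 3, adjusted p = 0.0153) and fell in Pc/ph+PTIP cells as well (-2.07, adjusted p = 0.0273). It read 11.94, 12.52 and 12.43 in control and 7.81, 11.20 and 10.84 in PTIP replicates 1, 2 and 3, and replicates 2 and 3 alone gave -1.45 (adjusted p = 4.34e-05). The fall in Pc/ph+PTIP cells was lost without control replicate 1 or 3 or any 1 of the Pc/ph+PTIP arrays (limma adjusted p up to 0.134). Pgm1, a phosphoglucomutase that links glycogen to glycolysis, read 11.40, 11.86 and 11.80 in control and 8.83, 10.55 and 10.21 in PTIP cells. Pgm1 arrays did not overlap between these groups, and the gene fell by 1.82 ± 0.22 in PTIP (adjusted p = 0.00179) and by 1.83 ± 0.22 in Pc/ph+PTIP cells (adjusted p = 0.00189). Pfk, which commits sugar to glycolysis, fell by 1.45 ± 0.19 in PTIP and by 1.25 ± 0.19 in Pc/ph+PTIP cells. The sugar-responsive transcription factor gene sug fell by 1.14 and 1.20, calls lost without PTIP replicate 1 in the first case (adjusted p = 0.0531) and without Pc/ph+PTIP replicate 1 or 3 in the second (up to 0.077). The Pgm1 and Pfk calls were kept without any single array.

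In Pc/ph cells the largest falls of these lists were in CG9485, placed here among the glycogen genes (-1.02 ± 0.09 SE, n = 3, adjusted p = 3.88e-04), and the sugar transporter gene sut1 (-0.98 ± 0.16, adjusted p = 0.0119). Tpi, the triose phosphate isomerase of glycolysis, fell by 0.61 and PhKgamma, a phosphorylase kinase subunit, by 0.51. The CG9485 call was kept without any single array, sut1 was lost without Pc/ph replicate 2 or 3 (adjusted p up to 0.0629), and Tpi and PhKgamma were each called in 3 of 12 fits that left out 1 array. CG9485 also fell in PTIP (-0.76) and Pc/ph+PTIP cells (-0.85) and was the 1 gene of the 81 called in the interaction (0.94 ± 0.13, adjusted p = 0.0234, and 1.00 without the block), a call made in 4 of 12 fits that left out 1 array. Compared with Pc/ph cells, Pc/ph+PTIP cells had lower Pgm1 (-0.92), sima (-0.63), which encodes the hypoxia-inducible factor alpha subunit, Pgm2a (-0.56) and Pepck2 (-0.46), a Pepck1 paralog whose signals of 5.06 to 6.07 lay near background. With 1 array left out these were called in 4, 9, 6 and 4 of 12 fits, and without the block limma called none of them (adjusted p = 1.00 for each).

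**Figure D4:**
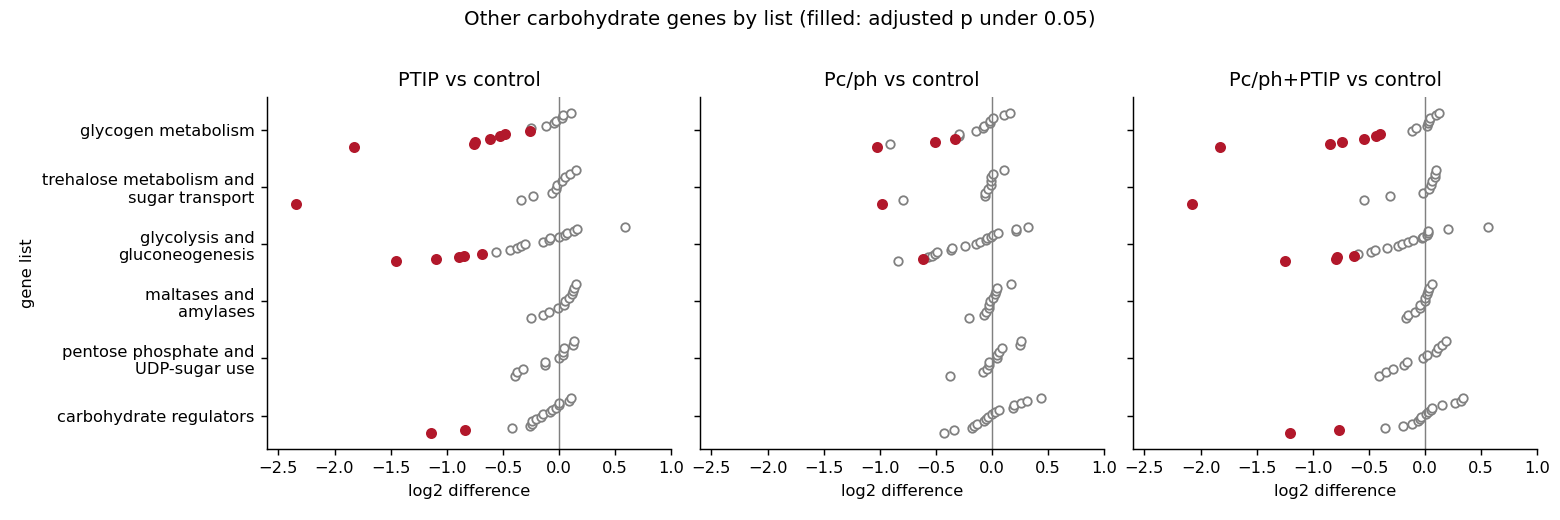
Log2 difference from control (horizontal axis, same range in each panel) of the 81 further carbohydrate genes by list in the 3 knockdown groups, filled where the adjusted p was under 0.05. All filled points lie below 0, with 15 in PTIP, 5 in Pc/ph and 13 in Pc/ph+PTIP cells, and none among pentose phosphate genes or among maltases, of which 0 lay above background on every array.

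Likeness of pattern was described by Pearson's r over the 12 arrays after removing the mean of each replicate number, among genes with a mean of at least 6. These arrays share the 4 group means, so r largely restates which groups were high or low. Gyg and Mal-A5 were alike (r = 0.947), and CG4408 was the closest gene to each of them (r = 0.975 and 0.964). For Gyg this holds for its brighter probe set. On the dimmer one Pc/ph did not differ from PTIP cells (0.0019), and its likeness was not computed. Treh was close to fbp (r = 0.909) and AGBE (r = 0.897), and its nearest gene was Zaf1 (r = 0.991). The genes nearest to fbp were l(1)G0469, CHKov2 and Mos (r = 0.965, 0.958 and 0.95). AGBE was nearest to the cytosolic malate dehydrogenase gene Mdh1 (r = 0.984). Pepck1 had r between -0.50 and 0.25 with the other 7 genes and was nearest to the small heat shock gene Hsp27 (r = 0.978), the triglyceride lipase gene bmm (r = 0.968) and ush (r = 0.965).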

How the data were processed

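Transcript levels in 12 samples were read on Affymetrix Drosophila arrays. The deposited values are log2 RMA signals, 1 per probe set and array, and RMA and limma are named in the submitters' processing notes, with versions not given in the sources used here. They were used as deposited, leaving out 183 control probe sets of 18952. The platform annotation gives 13647 of the 18769 tested probe sets 1 symbol, 402 several and 4720 none, and 13544 of the 13647 matched the gene table (Release 6 plus ISO1 MT) by gene number.

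Groups were fitted in limma 3.58.1 (R 4.3.3) on all 12 arrays with the replicate number as a block (6 residual degrees of freedom), no variance trend, two-sided tests and Benjamini-Hochberg adjustment within each comparison, and the steps were tested on simulated data. Errors are SE of the fit. The design has 6 comparisons, and Pc/ph against PTIP was added after the values were seen. Pairing of replicate numbers was read from the arrays: same-numbered arrays correlated at 0.489 to 0.88 after removing group means, those of different number at -0.842 to 0.784, and 9 of 12 arrays were closest to one of their own number. The 10 genes, the lists and the block were chosen with earlier results of these data known. All 10 genes are named by rule, with at most 4 further called genes per comparison, those with the largest change, and the 3 genes most alike to each. The number of arrays limits the precision. Alternatives were no block, quantile and cyclic loess normalization, probe sets above the median of mean values, a variance trend, replicates 2 and 3 alone, each array left out, and other probe sets. For the carbohydrate lists, leaving out arrays was added after the values were seen.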

Additional observations from a re-analysis of the deposited data

Results flagged for a closer look

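The effect of PTIP dsRNA differed between control and Pc/ph cells for fbp, with an interaction of 1.64 on the log2 scale, and for Mal-A5, with 1.19, each by limma's test of the interaction itself with the replicate block (adjusted p = 0.0143 and 0.0145, n = 3 arrays per group). For fbp the replicate differences with PTIP dsRNA were -1.61, -2.17 and -1.95 in control cells and 0.06, -0.35 and -0.53 in Pc/ph cells. For Mal-A5 they were -0.73, -0.41 and -0.33 in control cells and 0.57, 0.51 and 1.01 in Pc/ph cells. Neither was called without the block (adjusted p = 1.00 and 0.187) or without the library labelled Pc/ph+PTIP replicate 3 (adjusted p = 0.0629 and 0.0731), in which Ptip stood at 111% of control. Ptip was lower in Pc/ph+PTIP than in Pc/ph arrays in replicate 1 only. Pc in the Pc/ph+PTIP arrays stood at 45.5 to 70.9% of control. The part of either in these interactions was not tested. Control cells have no dsRNA labelled while Pc/ph cells do. An effect of dsRNA as such and one of the knockdowns thus cannot be told apart in these interactions.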

How the results depend on the processing

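Without the replicate block limma called 51, 37, 51, 56, 6 and 1 probe sets in PTIP, Pc/ph and Pc/ph+PTIP against control, Pc/ph+PTIP against Pc/ph, Pc/ph+PTIP against PTIP and the interaction, in that order, where the block gave 1224, 287, 1046, 1033, 6 and 35, and 0, 2, 0, 0, 0 and 0 of the 8 genes where the block gave 5, 5, 4, 2, 0 and 2. Replicates 2 and 3 alone gave 2566, 1066, 2194, 2925, 67 and 261 probe sets, and 5, 1 and 5 of the 8 genes in the last 3 comparisons. Leaving out 1 array gave 475 to 1699, 134 to 477, 377 to 1563, 333 to 1561, 4 to 17 and 9 to 80 probe sets, and 2 to 6, 4 to 6, 2 to 5, 1 to 3, 0 to 0 and 0 to 3 genes. A variance trend gave 10 probe sets for Pc/ph+PTIP against PTIP. Quantile normalization gave 1 gene in the interaction, Treh, with fbp and Mal-A5 lost. It gave 971 probe sets higher and 816 lower in PTIP cells, against 511 and 713 as deposited, and 5 and 0 for Pc/ph+PTIP against PTIP, against 5 and 1.

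Of the single-gene values over all alternatives, 870 kept direction and side of the threshold, 73 lost a call, 32 gained one and 33 turned. In replicates 2 and 3 alone the turned differences were -0.0051 (Tps1, Pc/ph against control), -0.57 and -0.063 (Pepck1 and Tps1, Pc/ph+PTIP against control), -0.058 (Tps1, Pc/ph+PTIP against Pc/ph), and -0.016 and -0.077 (fbp and AGBE, Pc/ph+PTIP against PTIP). Tps1 turned to -0.015 after quantile normalization and -0.012 after cyclic loess in Pc/ph+PTIP against Pc/ph, and to 0.00086 and 0.0083 in Pc/ph against PTIP. The dimmer Gyg probe set gave 0.10 for Pc/ph+PTIP and 0.0019 for Pc/ph against PTIP. With 1 array left out, Tps1 ran from -0.035 to 0.11 in Pc/ph and -0.031 to 0.12 in Pc/ph+PTIP against control, from -0.060 to 0.070 against Pc/ph and -0.10 to 0.025 against PTIP. Pepck1 ran from -0.41 to 0.45 in Pc/ph+PTIP against control. Against PTIP, Pc/ph+PTIP differences ran from -0.080 to 0.21 for fbp, -0.28 to 0.036 for Gyg, -0.16 to 0.21 for AGBE and -0.22 to 0.12 for Treh, and Pc/ph differences from -0.35 to 0.011 for AGBE and -0.055 to 0.065 for UGP. The cause of these changes was not tested. UGP and Tps1 lie at or near background, which limits what their differences show.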
